A study of Neogale vison with 6 samples.

Results

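The WIPI and ATG2 proteins, ATG9A and VMP1 are the proteins that enlarge the phagophore, the membrane cup that closes into an autophagosome. Their 8 genes were WIPI1, WIPI2, WDR45 (which encodes WIPI4), WDR45B (which encodes WIPI3), ATG2A, ATG2B, ATG9A and VMP1. They were taken from the count table by gene symbol, each symbol matched 1 row, and the rule that picks them uses no measured value. They are 8 of 24526 gene rows, and all 8 were among the 12148 genes with enough reads to be tested. The samples were 6 libraries of poly(A) mRNA from Mv1Lu, an epithelial cell line of mink (Neogale vison) lung, comprising 3 control libraries (untreated cells) and 3 libraries after cholesterol depletion (CD). For CD, the cells received 50 μM lovastatin, an inhibitor of HMG-CoA reductase, together with 50 μM mevalonate in medium that contained 10% lipoprotein-deficient serum (LPDS), for 16 h. Statin, mevalonate and LPDS were given as a single treatment, and their separate contributions cannot be told apart. The labels do not say whether the control cells were kept in LPDS, and so whether the serum differed between the groups. For its protein blots, the study describes control cells in growth medium. For its assay of reactive oxygen species, it describes untreated cells in medium with 10% fetal calf serum. Nothing in the labels says that the 3 libraries of a group came from separate cultures, so the tests measure the spread between these libraries, which may be technical.

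An autophagosome grows from small vesicles that carry ATG9A. On the growing membrane, the class III PI3-kinase makes phosphatidylinositol 3-phosphate (PI3P), and the WIPI proteins, β-propellers with an FRRG motif, bind this lipid and bring other proteins with them. WIPI2 recruits ATG16L1 and thereby the machinery that attaches ATG8 proteins to lipid, whereas WIPI3 and WIPI4 bind ATG2. The ATG2 proteins form bridges through which phospholipids flow from the endoplasmic reticulum into the phagophore, and ATG9A on the phagophore and VMP1 in the endoplasmic reticulum are scramblases that spread the lipids over both leaflets.

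The reads counted on genes numbered between 13473820 and 18633764 per library. Levels are given as CPM, the counts of a gene per 1000000 reads on genes after TMM scaling, and where 3 values stand for a group they are in the order of replicates 1, 2 and 3. Means carry the SD of 3 libraries. Changes are log2 fold changes of CD over control with their standard errors (SE). A change was called at an FDR (Benjamini-Hochberg over all 12148 genes) under 0.05 with edgeR (quasi-likelihood test). The CD libraries varied more than the control libraries, with a biological coefficient of variation of 0.213 against 0.0842. Between 3.54% and 18.4% of the reads of a library were unmapped, with the largest shares in control replicate 1 (18.4%) and, among the CD libraries, in CD replicate 3 (9.37%). As a check of the treatment, HMGCS1 and INSIG1, which respond to sterols, rose by log2 fold changes of 3.43 (FDR 4.17e-07) and 1.67 (FDR 8.48e-06, edgeR).

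As a check of the labelled cell type, the keratin gene KRT7 had a mean of 7126 CPM without and 1256 CPM with CD and KRT19 one of 936 and 458 CPM, while CLDN4 rose from 0.603 to 7.03 CPM (log2 fold change 3.55, FDR 9.61e-06, edgeR) and OCLN (0.063, FDR 0.83) and TJP1 (-0.31, FDR 0.12) were not called. The epithelial genes CDH1, EPCAM and CLDN7 had at most 18 counts in either group. The summed level of 8 epithelial markers found, of 10 listed, lay between 7932 and 8581 CPM in control and between 1683 and 2081 CPM in CD libraries. Most of this epithelial sum was KRT7 in both groups. For the other cell types, 8 of 8 fibroblast markers summed to 310-387 CPM in control and 183-232 CPM in CD, with COL1A1, COL1A2, COL3A1 and PDGFRB called lower (4 of 5 tested, edgeR), and 5 of 6 endothelial markers to 206-221 CPM and 75.9-124 CPM. The endothelial sum was almost entirely TEK (215 and 102 CPM), whereas VWF, with 5 counts in control and 56 in CD, rose (log2 fold change 3.38, FDR 8.82e-04, edgeR). The summed level of 6 of 8 immune markers lay between 5.64 and 6.89 CPM in control and between 21.8 and 26.9 CPM in CD. All 3 tested immune markers were called higher, CD68 with a log2 fold change of 1.85 (FDR 2.49e-05), CSF1R with 2.16 (FDR 3.12e-04) and CD14 with 2.37 (FDR 0.00141, edgeR). Among the untested markers, the immune gene PTPRC had 0 counts in control and 1 in CD, the endothelial gene CDH5 likewise 0 and 1, and the fibroblast gene THY1 0 in both. The untested fibroblast genes LUM (7 counts in control and 35 in CD) and DCN (3 and 15) had more counts in CD, unlike the called fibroblast genes. The endothelial gene PECAM1 had 0 and 11 counts and KDR 3 and 1, and the immune gene ITGAM had 1 and 0. The part of these shifts in the results below was not tested, and in bulk RNA a smaller share of a cell type and less RNA per cell cannot be told apart.

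Of the 8 genes, 4 were higher in CD at an FDR under 0.05 in edgeR (WIPI1, WIPI2, WDR45 and ATG2A), 0 were lower and 4 were not called (WDR45B, ATG2B, ATG9A and VMP1). Over all tested genes, 24.8% were called higher and 22.9% lower, so that 47.7% were called in either direction, close to the 4 of 8 found here. At an unadjusted p under 0.05, edgeR gave 4 of the 8 genes as higher and 0 as lower, and the same numbers were obtained with DESeq2 and with limma voom. The median log2 fold change of the 8 genes was 0.29, against 0.06 for all genes tested. The 4 higher genes thus comprised 3 of the 4 WIPI genes and 1 of the 2 ATG2 genes, while both scramblase genes were not called.

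**Figure D1:**
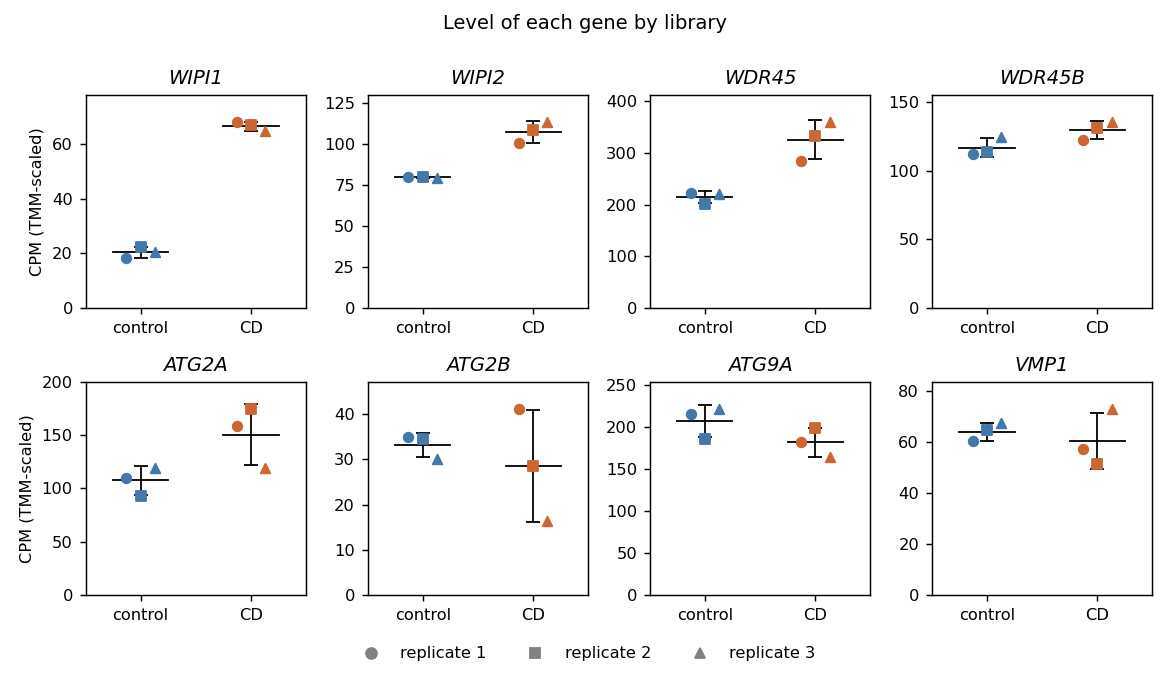
Level of each of the 8 genes in CPM in the 3 control and 3 CD libraries. Marker shapes give the replicate number, and bars are the mean ± SD (n = 3). For WIPI1, WIPI2 and WDR45 all CD libraries lie above all control libraries, and for the other genes the groups overlap.

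WIPI1, a PI3P-binding protein that collects on the phagophore, had the largest change. Its level was 18.3, 22.3 and 20.7 CPM in the control libraries and 67.9, 67.0 and 64.7 CPM in the CD libraries. The CD libraries lay far above the control libraries and close to each other, with a coefficient of variation of 2.50% against 9.85% in control. The fold change was 3.26 (log2 1.71, SE 0.13, 95% interval 1.42 to 1.99), with an FDR of 5.11e-06 in edgeR. By log2 fold change WIPI1 ranked 460 from the top among the 12148 genes, at percentile 96.2. It was called under all 16 alternative settings, and its log2 fold change stayed between 1.62 and 1.77.

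WIPI2, the family member that binds ATG16L1, changed by a much smaller amount. Its level was 80.2, 79.8 and 79.2 CPM in the control libraries and 101, 109 and 113 CPM in the CD libraries. The groups did not overlap, and the control libraries differed by about 1 CPM, a coefficient of variation of 0.638%. The fold change was 1.35 (log2 0.43, SE 0.11), with an FDR of 0.00770 in edgeR. WIPI2 was called under all 16 alternative settings, with an FDR of up to 0.0455 when CD replicate 2 was left out.

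WDR45 encodes WIPI4, which binds ATG2 and is mutated in a neurodegenerative disease with iron accumulation in the brain. It was at 222, 201 and 220 CPM in the control libraries and at 285, 333 and 359 CPM in the CD libraries. Every CD library was above every control library. The fold change was 1.52 (log2 0.60, SE 0.12), with an FDR of 0.00238 in edgeR, and WDR45 was called under all 16 alternative settings.

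WDR45B encodes WIPI3, the closest relative of WIPI4, which also binds ATG2. Its level was 112, 113 and 124 CPM in the control libraries and 122, 131 and 135 CPM in the CD libraries. CD replicate 1 lay below control replicate 3, so that the groups overlapped. The log2 fold change was 0.15 (SE 0.11, FDR 0.27, edgeR), with a 95% interval of -0.088 to 0.39, and WDR45B was not called under any of 16 alternative settings.

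For WIPI1, WIPI2 and WDR45, the lack of overlap between the groups gave p = 0.1 in a two-sided exact permutation test, the smallest value possible for groups of 3. Over all tested genes, the CD libraries lay entirely above the control libraries for 29.5% and entirely below them for 28.6%, 58.0% in all. WIPI2, WDR45 and WDR45B had their lowest CD value in replicate 1 and their highest in replicate 3, a pattern shown by 25.7% of the tested genes. WIPI1 had its highest CD value in replicate 1 and its lowest in replicate 3.

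**Figure D2:**
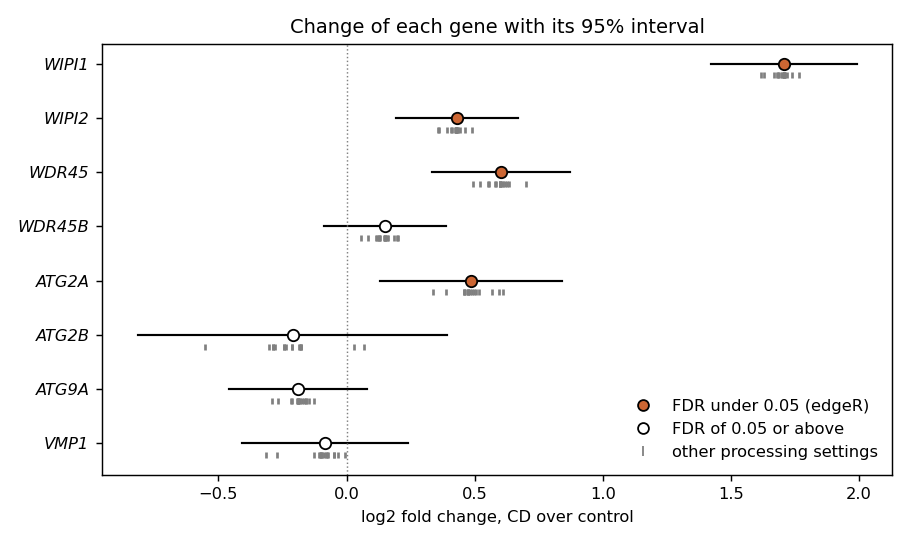
Log2 fold change of CD over control for the 8 genes (horizontal axis) with its 95% interval from edgeR. Filled points passed an FDR of 0.05, open points did not, and grey ticks below each point give the value under 16 other processing settings. The interval of WIPI1, 1.42 to 1.99, lies above those of the other 7 genes.

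ATG2A and ATG2B encode the lipid bridges to which WIPI3 and WIPI4 bind. ATG2A was at 110, 92.9 and 119 CPM in the control libraries and at 158, 174 and 119 CPM in the CD libraries. CD replicates 1 and 2 were above all control libraries, and CD replicate 3 was level with control replicate 3, so that the groups overlapped. The fold change was 1.40 (log2 0.49, SE 0.16), with an FDR of 0.0285 in edgeR. The call was lost without control replicate 1 (FDR 0.0779), control replicate 2 (FDR 0.12) or CD replicate 2 (log2 fold change 0.34, FDR 0.13), and held in the other 13 of 16 settings. Without CD replicate 3, the log2 fold change of ATG2A was 0.59 (FDR 6.70e-06, edgeR).

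ATG2B was the most variable of the 8 genes in the CD libraries, though not in control. Its level was 34.8, 34.5 and 30.1 CPM in the control libraries and 41.0, 28.4 and 16.3 CPM in the CD libraries. The highest and the lowest of the 6 values were thus both CD libraries, and the coefficient of variation was 43.3% in CD against 7.97% in control. The log2 fold change was -0.21 (SE 0.27, FDR 0.55, edgeR), with a 95% interval of -0.81 to 0.39. The sign depended on CD replicate 3, without which the log2 fold change was 0.030 (FDR 0.87). Without CD replicate 1 it was -0.55 (FDR 0.0613).

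ATG9A, the scramblase of the vesicles from which the phagophore starts, was at 216, 186 and 221 CPM in the control libraries and at 182, 199 and 164 CPM in the CD libraries. CD replicate 2 lay above control replicate 2, and the groups overlapped. The log2 fold change was -0.19 (SE 0.12, FDR 0.22, edgeR), with a 95% interval of -0.46 to 0.078. ATG9A was not called under any of 16 alternative settings, and its log2 fold change lay between -0.29 and -0.13 over them.

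VMP1, the scramblase of the endoplasmic reticulum, was at 60.3, 64.7 and 67.3 CPM in the control libraries and at 57.3, 51.6 and 72.8 CPM in the CD libraries. CD replicate 3 held the highest of the 6 values, and CD replicates 1 and 2 held the lowest. The log2 fold change was -0.083 (SE 0.14, FDR 0.66, edgeR), with a 95% interval of -0.41 to 0.24. Without CD replicate 3 VMP1 was called lower (log2 fold change -0.27, FDR 0.0408, edgeR), the only one of 16 settings in which this happened, and without both control replicate 1 and CD replicate 3 it was not called (FDR 0.0703).

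The members of each paralog pair were also compared with each other, as the ratio of their read counts within a library, which does not depend on the scaling of libraries. WIPI1 had 0.228, 0.279 and 0.261 reads for each read of WIPI2 in the control libraries, and 0.675, 0.617 and 0.571 in the CD libraries. The ratio of WIPI1 to WIPI2 was therefore 2.43 times as high in CD, a difference of 1.28 ± 0.11 (SE) on the log2 scale, and the groups did not overlap. The ratio of WDR45 to WDR45B was 1.99, 1.77 and 1.77 in control libraries and 2.33, 2.55 and 2.66 in CD libraries. Here, too, the groups did not overlap, and the ratio was 1.36 times as high in CD (log2 difference 0.45 ± 0.079, SE). For both pairs the two-sided exact permutation test gave p = 0.1 (0.15 after Benjamini-Hochberg adjustment over the 3 pairs), the smallest p that this test allows with 3 libraries per group.

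The ratio of ATG2A to ATG2B was 3.15, 2.69 and 3.97 in the control libraries and 3.86, 6.12 and 7.30 in the CD libraries. CD replicate 1 fell below control replicate 3, and the log2 difference was 0.78 ± 0.32 (SE; exact permutation test, two-sided p = 0.2, adjusted p = 0.2). In each of the 3 pairs, the gene with the larger log2 fold change was one of the 4 called genes. In the pair WIPI1 and WIPI2 both genes were called, whereas in the other pairs only WDR45 and ATG2A were.

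**Figure D3:**
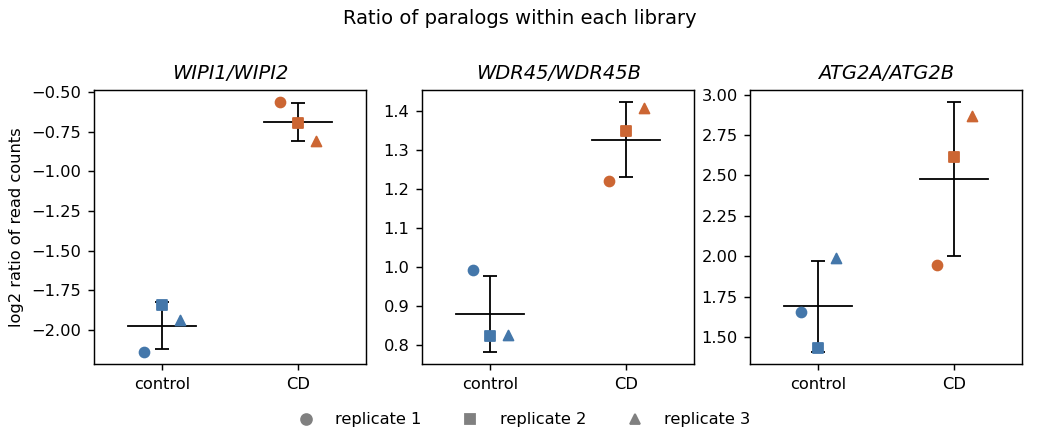
Log2 ratio of the read counts of WIPI1 to WIPI2, WDR45 to WDR45B and ATG2A to ATG2B in each library, with the mean ± SD of 3 libraries per group. The CD libraries lie above the control libraries for the first and second ratio and overlap with them for the third.

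ATG2 belongs to a family of bridge-like lipid transfer proteins that also holds VPS13A to VPS13D and BLTP1, BLTP2, BLTP3A and BLTP3B, all of which carry lipids along a long hydrophobic groove. The last 4 are listed under the older symbols KIAA1109, KIAA0100, UHRF1BP1 and UHRF1BP1L. All 8 of these genes were tested, of which 1 fell and 7 were not called, against 22.9% lower and 24.8% higher over all tested genes. DESeq2 and limma voom with a variance weight per group each gave 2 as lower. Their median log2 fold change was -0.084. BLTP3A was at 36.0, 36.9 and 39.9 CPM in the control libraries and at 27.8, 22.6 and 13.2 CPM in the CD libraries. The groups did not overlap, with a log2 fold change of -0.83 (SE 0.23, FDR 0.0145, edgeR), and the call was lost without control replicate 3 (FDR 0.0602). In all 8 genes CD replicate 1 was the highest and CD replicate 3 the lowest CD library, as for ATG2B, whereas 27.4% of all tested genes had this order. Their median coefficient of variation was 45.2% in CD and 6.09% in control, against 17.0% and 8.80% over all tested genes. VPS13D, for instance, was at 37.4, 25.4 and 11.2 CPM in the CD libraries. ATG2A did not share this order, since its highest value was in CD replicate 2. A wide spread in CD was not particular to these 8 genes. Among other PI3P-binding proteins, followed below, WDFY3 (34.7 ± 21.1 CPM in CD, SD, n = 3) and PIKFYVE (6.26 ± 3.89 CPM) also varied widely. RUFY1 (22.7 ± 0.913 CPM in CD), of the same list, did not. Without CD replicate 3, 3 of the 8 genes were called higher and 2 lower, where 29.3% and 29.2% of all tested genes were. Without CD replicate 1, 4 were called lower, against 23.5% of all tested genes. The share of unmapped reads was 3.54%, 4.33% and 9.37% in the CD libraries, and 18.4%, 13.6% and 4.25% in the control libraries. Its part in these values was not tested.

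**Figure D4:**
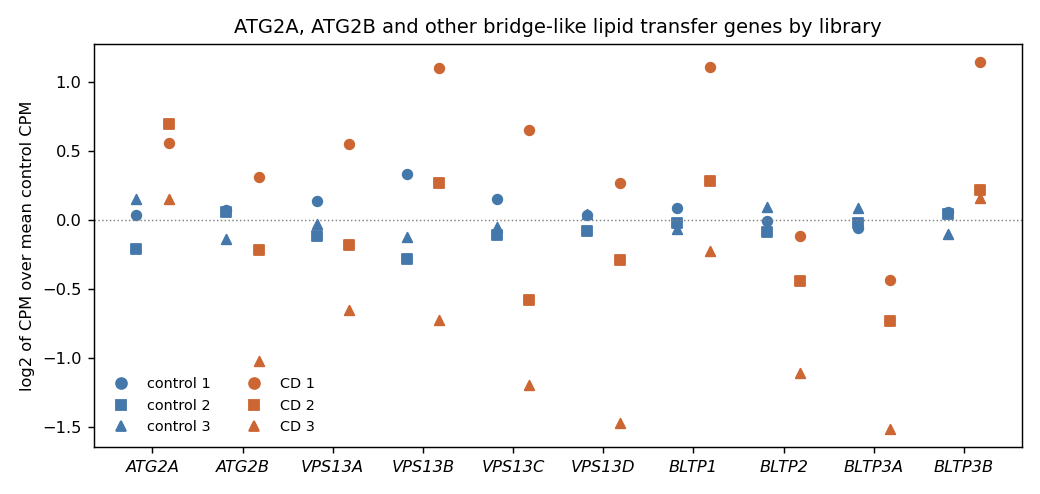
CPM of ATG2A, ATG2B and 8 other bridge-like lipid transfer genes in each library, as the log2 of its ratio to the mean of the control libraries. For ATG2B and the 8 other genes, CD replicate 1 is the highest and CD replicate 3 the lowest CD library, while ATG2A is highest in CD replicate 2.

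The neighbouring steps were followed with 9 lists of 67 genes in all, of which 55 could be tested. With edgeR, 23 of them (41.8%) rose and 3 (5.45%) fell after CD (FDR under 0.05), against 24.8% and 22.9% of all tested genes. In either direction the share was 47.3%, against 47.7% of all tested genes. Their median log2 fold change was 0.40. The number of higher genes fell to 15 without control replicate 1 and to 14 without control replicate 3, and the number of lower genes rose to 7 without CD replicate 1. Over all tested genes the number of higher calls was 3016, and 2265 and 2216 in the first and second of these settings, and the share of lower calls was 23.5% in the third.

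The genes that make PI3P, the lipid that the WIPI proteins bind, were mostly higher. Of 7 tested, 5 rose and 1 fell, against 24.8% higher and 22.9% lower over all tested genes. The median log2 fold change was 0.87. ATG14, the subunit that directs the PI3-kinase complex to the site of autophagosome formation, had a mean of 3.88 ± 0.501 CPM in control and 15.4 ± 1.98 CPM in CD libraries (SD, n = 3; log2 fold change 1.99, SE 0.19, FDR 2.82e-05, edgeR). AMBRA1, a regulator of beclin 1, fell from 79.8 ± 6.57 to 52.0 ± 9.65 CPM (log2 fold change -0.62, SE 0.15, FDR 0.00677, edgeR). Of the myotubularin phosphatases, which remove PI3P, 3 of 7 tested were higher, against 24.8% of all tested genes. The other 4 were not called, and the median was 0.48. Omitting control replicate 1, control replicate 3, CD replicate 1 or CD replicate 2 left 1 higher gene, and omitting CD replicate 3 gave 6. Higher calls among all tested genes numbered 3016 with all libraries, and 2265, 2216, 3078, 2498 and 3616 in these settings, in the same order. Among the phosphatases, MTMR14, which acts on PI3P of the phagophore, had a log2 fold change of 0.67 (FDR 0.00262, edgeR). The change of MTMR1 (0.36, FDR 0.0411) was not called in 10 of 16 alternative settings, DESeq2 included.

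Of 11 other proteins that bind PI3P, 4 were higher, against 24.8% of all tested genes, and 7 were not called, with a median of 0.29. The number of higher genes in this list fell to 2 when any single control library or CD replicate 1 was omitted, and to 2 with limma voom. Higher calls among all tested genes fell from 3016 to 2265, 2391 and 2216 without control replicates 1, 2 and 3. They numbered 3078 without CD replicate 1 and 2939 with limma voom. ZFYVE1, whose product DFCP1 marks the omegasome from which the phagophore emerges, rose from 35.3 ± 4.25 to 66.5 ± 11.2 CPM (log2 fold change 0.91, SE 0.16, FDR 0.00106, edgeR), and the smallest called change was that of WDFY1 (0.54, FDR 0.0479), which was not called in 7 of 16 settings and was at 0.29 without CD replicate 1. In the ULK complex, the kinase complex that starts the process, 3 of 4 tested genes were higher, against 24.8% of all tested genes. RB1CC1, its scaffold FIP200, had a log2 fold change of 1.36 (FDR 7.18e-04, edgeR), and the kinase ULK1 one of 0.85 (FDR 2.51e-04, edgeR).

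Downstream of WIPI2, 3 of 5 tested genes of ATG8 conjugation were higher, with a median log2 fold change of 0.43. None was higher when control replicate 3 was omitted, and 1 was when control replicate 1, CD replicate 1 or CD replicate 2 was. ATG16L1, the partner of WIPI2, had a log2 fold change of 0.34 (FDR 0.0414, edgeR), against 0.43 for WIPI2, and was not called in 11 of 16 settings. ATG10 changed by 0.74 (FDR 0.0116, edgeR), and its call was lost without control replicate 3 (FDR 0.0608). Both tested ATG8 genes, MAP1LC3A and GABARAPL2, were higher, with log2 fold changes of 1.27 and 1.08 (FDR 1.19e-04 and 3.74e-04, edgeR).

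Among 10 genes that act in the traffic of ATG9A vesicles, 3 were higher, 1 was lower and 6 were not called, with a median of 0.21. The shares of all tested genes were 24.8% higher and 22.9% lower. In the list, the number of higher genes fell to 1 without control replicate 1 or 3, and that of lower genes rose to 2 without CD replicate 1. Higher calls among all tested genes fell from 3016 to 2265 without control replicate 1 and to 2216 without control replicate 3. Lower calls among all tested genes numbered 2784 with all libraries and 2883 without CD replicate 1. ARFIP2, a BAR domain protein of ATG9A vesicles, fell from 95.2 ± 8.22 to 51.7 ± 1.79 CPM (log2 fold change -0.88, SE 0.12, FDR 1.90e-04, edgeR). AP4E1, a subunit of the AP-4 adaptor that carries ATG9A out of the Golgi, rose from 5.25 ± 0.567 to 10.7 ± 4.47 CPM (log2 fold change 1.03, SE 0.28, FDR 0.0133, edgeR), a call that was lost without control replicate 1 (FDR 0.0542) or 3 (FDR 0.0564). Without CD replicate 1 the log2 fold change of AP4E1 was 0.67. TMEM64, a relative of VMP1, was the 1 tested gene of 4 listed as relatives of VMP1 and ATG9A, and its log2 fold change was -0.059 (SE 0.17, FDR 0.80, edgeR).

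**Figure D5:**
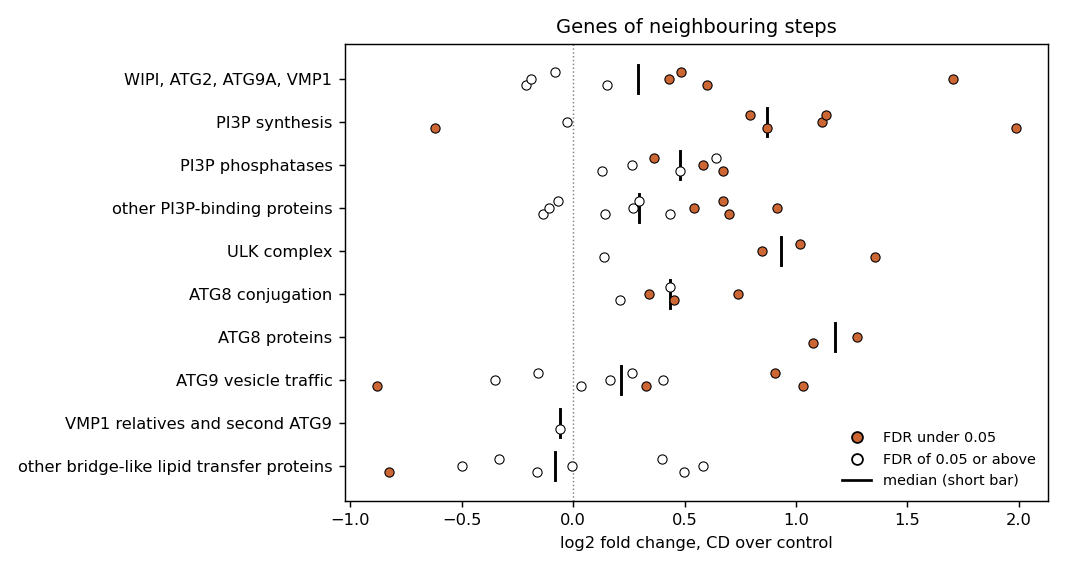
Log2 fold change of CD over control of every tested gene of the 8 genes and of 9 lists of neighbouring steps. Filled points passed an FDR of 0.05 in edgeR, open points did not, and short bars are medians, of which those of the ULK complex and of PI3P synthesis are 0.93 and 0.87.

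The genes with the pattern most like that of WIPI1 were TOB1, MAP3K8 (listed as M3K8), NOTCH4, SH3BP5 and XPC, with Pearson correlations of log2 CPM of 0.999 over the 6 libraries. The points share the contrast between the groups, and 34.1% of all tested genes had a correlation of at least 0.9 in size with WIPI1. Their log2 fold changes were 1.42 for TOB1, 3.50 for MAP3K8, 1.58 for NOTCH4, 4.08 for SH3BP5 and 0.58 for XPC, against 1.71 for WIPI1. Of these genes, 3 were low in control. NOTCH4 had a mean of 0.326 CPM in control and 0.988 CPM in CD, MAP3K8 one of 1.61 and 18.3, and SH3BP5 one of 1.44 and 24.4. TOB1 (114 and 305 CPM) and XPC (85.4 and 128 CPM) were higher in level.

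In the RefSeq annotation of another mink assembly (ASM_NN_V1), which holds all 8 genes, 0 protein-coding genes overlap them, and the 1 overlapping gene of another kind is a small nuclear RNA gene within ATG2B. Of their 16 nearest protein-coding neighbours, 12 could be tested, of which 2 were higher and 3 lower, against 24.8% and 22.9% of all tested genes. WIPI1 lies between PRKAR1A and ARSG, whose log2 fold changes were 0.19 (FDR 0.18) and 0.61 (FDR 0.096, edgeR), neither of them called. Of the neighbours that were called, PPP2R5B next to ATG2A (log2 fold change 1.91, FDR 2.63e-06, edgeR) and GPKOW next to WDR45 (0.43, FDR 0.0157) were higher. RADIL next to WIPI2 (-1.02, FDR 8.93e-04, edgeR), FOXK2 next to WDR45B (-0.59, FDR 0.00371) and ABCB6 next to ATG9A (-0.69, FDR 0.00129) were lower.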

How the data were processed

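Per the labels and the study's methods, the authors trimmed the reads with fastp 0.20.1 and aligned them with STAR 2.7.2a to the mink assembly NNQGG.v01, and compared expression with DESeq2 1.30.1 in R 4.0.3. The counting program and its strand setting are not given in the sources used here. The authors deposited raw counts, which were used as they are. Their 4 rows of read totals, which name no gene, held 29.3-47.2% of the reads of a library and were left out. The deposited normalized files were not used, because they hold the same counts scaled by a constant beside gene identifiers in another order.

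For the tests, edgeR 4.0.16 was run in R 4.3.3 on the counts, with filterByExpr (minimum count 10, minimum total 15), TMM scaling, and robust glmQLFit and glmQLFTest with the condition as the only term. SE is the size of the log2 fold change divided by the square root of F, and the 95% interval uses the t quantile of the fit. The scripts were tested on simulated data. The alternatives were DESeq2 1.42.0, limma 3.58.1 voom with and without a variance weight per group, 3 other scalings, 2 other filters, a block for the replicate number, the omission of each library, and, chosen after seeing the data, control replicate 1 and CD replicate 3 left out together (16 in all), besides an FDR of 0.01 for numbers of calls.

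The 8 genes and the lists were chosen with earlier results of these data known. Named are the 8 genes, in each list the called genes with the highest and lowest log2 fold change and the smallest FDR, the 5 genes most correlated with WIPI1, HMGCS1 and INSIG1. VPS13D, WDFY3, PIKFYVE, RUFY1, TMEM64, the single marker genes of cell types and the genes next to the 8 were chosen after their values were seen. No coordinates, lengths or sequences are given, as the annotation at hand is of another assembly, so levels per length were not computed. The ratios of read counts within paralog pairs compare the groups and not the levels of the paired genes.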

Additional observations from a re-analysis of the deposited data

How the results depend on the processing

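WIPI1, WIPI2 and WDR45 were called higher under all 16 alternatives, and WDR45B, ATG2B and ATG9A under none. When single libraries were left out, the log2 fold change of ATG2A lay between 0.34 and 0.59, that of ATG2B between -0.55 and 0.030 and that of VMP1 between -0.27 and -0.0075, and the number of the 8 genes called lower was 0 to 1. Without both control replicate 1 and CD replicate 3, ATG2B was at 0.067, ATG2A at 0.61 and VMP1 at -0.31. Of the neighbouring genes, 14 to 31 were higher and 2 to 7 lower with 1 library left out, while the higher calls over all genes ranged from 2216 to 3616, and 14 were higher at an FDR under 0.01, at which 2006 of all genes were higher. The cause of these differences was not tested. The log2 differences of the paralog ratios kept their sign throughout. The labels do not say whether same-numbered libraries were processed together. The correlation of deviations of same-numbered libraries was -0.024, -0.33 and -0.18, and that of other pairs lay between -0.024 and 0.26. With 3 libraries per group, centred within the group, these values cannot decide whether the libraries were paired. With the replicate block, 4 of the 8 genes were higher and 0 lower, 2 of the other bridge-like genes were lower, 2772 of all genes were higher and 2636 lower, and the log2 fold change of WIPI1 was 1.71. The block gave the paralog ratios an exact sign-flip p of 0.25, the smallest that 3 pairs allow. The other scalings moved the median of all genes by at most 0.033 (log2).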
